A study of Mus musculus with 9 samples.

Results

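The genes described here build the kinetochore, the protein plate that joins each chromosome to spindle microtubules, or run the spindle checkpoint that watches over that attachment. They were chosen by name, as 42 genes of the centromere, the outer kinetochore, the checkpoint and the kinases that act there. Of the 42, 41 have at least 1 probe set annotated to that gene alone, out of 22180 genes with such a probe set in the table. The exception is Cenpu, whose probe sets are shared with a neighbouring gene.

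The cells are MSC2, a clone of stromal cells isolated from the marrow of C57BL/6 mice labelled as 6 weeks old, so every culture descends from a single clone. Undifferentiated cultures were kept in alpha-MEM lacking ascorbic acid. Induction began at confluence, in DMEM with dexamethasone at 0.1 µM, ascorbic acid-2 phosphate at 0.2 mM, beta-glycerophosphate at 10 mM and sodium pyruvate at 1 mM, and lasted 14 or 28 days. All media held 10% serum. Each of the 3 states has 3 arrays that the series text calls independent replicates, and nothing in it says whether they were separate cultures, so p-values measure the spread between these samples, which may be technical. Medium, confluence and time in culture differ between undifferentiated and induced cells together with induction, and their parts cannot be told apart.

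Centromeres carry a histone H3 variant, CENP-A, on which a constitutive centromere-associated network (CCAN) sits through the whole cell cycle. When a cell enters mitosis, the Mis12, Knl1 and Ndc80 complexes are built onto that base and catch microtubules, and the checkpoint proteins Mps1, Bub1, BubR1, Bub3, Mad1 and Mad2 gather on kinetochores that are not yet attached and hold back the anaphase-promoting complex. Many of these genes are transcribed mainly in late S, G2 and M phase and are repressed in resting cells, so in a bulk culture their RNA is commonly read as a trace of dividing cells.

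Values are log2 signals from which the authors' table has the median of each probe set over the 9 arrays removed, so they show differences between arrays and no level of a gene. For members they ran from -1.28 to 2.32. Because most members step down from one state to the next, their median array is a 14-day array and that group lies near 0 by construction. In 8 members 2 of the 3 arrays at 14 days hold the same value, which understates the spread of that group. Such ties occur in 14.6% of all genes at 14 days, and in 8.55% and 8.96% in undifferentiated cells and at 28 days, where no member has them. The direction of the scale was checked on Fkbp5, a target of the glucocorticoid receptor, which rose 2.67-fold at 14 days (log2 1.42, SE 0.06, limma adjusted p = 2.15e-08). As arrays carry no counts, their number limits the precision. In bulk RNA, fewer cells in division and less of each RNA per cell cannot be told apart.

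At 14 days 39 of the 41 genes had fallen, 32 of them at least 2-fold, and none had risen. Over all 22180 genes, 17.5% fell at an adjusted p under 0.05 in the same limma fit, and 2.05% fell at least 2-fold. The median change of the 41 was -1.59 on the log2 scale, against 0.0048 for all genes. The largest fall was that of Plk1, the polo-like kinase of mitosis, to 4.77-fold below undifferentiated cells (log2 -2.25, SE 0.05, limma adjusted p = 5.27e-10). At an unadjusted p under 0.05 the members that were higher numbered 1 at 14 days, 0 at 28 days and 0 between them. Genes that rose made up 18.2% of the table. In 39 members all arrays at 14 days lay below all undifferentiated ones, beside 21.9% of all genes. Dsn1 and Zwint were the members without a call.

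At 28 days 40 of 41 had fallen, 34 of them at least 2-fold, beside 19.5% and 2.93% of all genes. The median change was -2.06, against 0.02 for all genes. The largest fall was now that of Bub1, a checkpoint kinase, which stood 9.79-fold lower (log2 -3.29, SE 0.06, limma adjusted p = 5.18e-11). Of the 100 genes with the largest falls in the whole table, 17 were members at 28 days and 15 at 14 days. In 40 members the arrays did not overlap and were lower, beside 22.4% of all genes, and none rose, beside 20.4%. Both comparisons use the same undifferentiated arrays. Quantile normalization again, applied to the centred values, makes the arrays' distributions equal. It pulled the 14-day medians from -1.35 to -0.71 for the centromere-resident genes and from -1.74 to -0.93 for the others. With it, 39 members were called as fallen at 14 days.

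**Figure D1:**
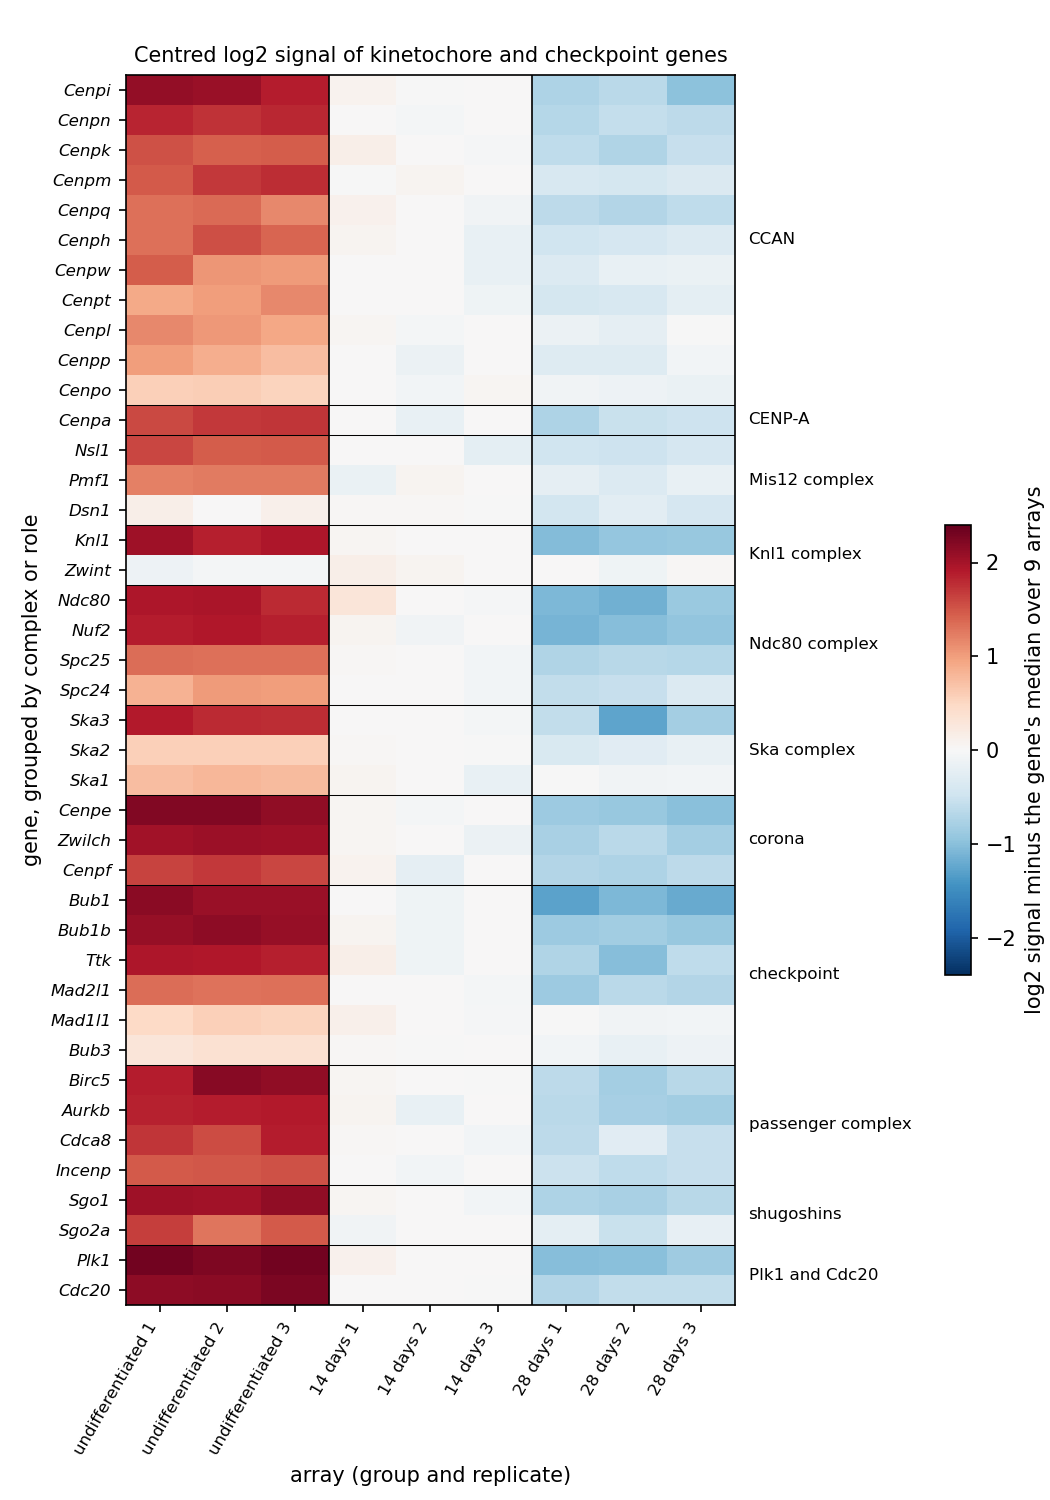
Heat map of the centred log2 signal of the 41 genes (rows, grouped by complex or role) in the 9 arrays (columns, 3 per state); red is above and blue below the gene's median over the arrays. Nearly every row is highest in the 3 undifferentiated arrays and lowest in the 3 arrays at 28 days, whereas Zwint, Dsn1 and Bub3 stay pale.

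The 250 bases before and 50 bases after the annotated start of each gene, from RefSeq on build GRCm38.p6, were searched for sequence motifs common in genes of mitosis. They were matched by symbol for 36 of the 42 genes. CCAAT is the box bound by the factor NF-Y, and TTTGAA is the cell cycle homology region bound by the MuvB complex through Lin54; both strands were searched, and the motifs can share at most 1 end letter. Among the 32 genes with a single annotated start, 68.8% had CCAAT, 46.9% had TTTGAA and 37.5% had both. Over the 14336 genes of the table with a single start the shares were 38.9%, 16.4% and 6.61%. CCAAT was present in 9 of 12 centromere-resident and 13 of 20 mitosis-restricted genes, and TTTGAA in 4 and 11. The residents counted here include Cenpu, which has no probe set to itself. They leave out Cenpk, which has more than a single annotated start. These matches describe the sequence and show neither binding nor control.

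To show how these motifs lie in genes that moved differently, the 150 bases before the start of 6 members are given 5′ to 3′ on the gene's strand, with CCAAT and TTTGAA in capitals (ATTGG and TTCAAA where they lie on the other strand). Cdc20, Cenpn and Bub1 fell strongly, Bub3 fell little, Dsn1 fell late and Zwint had no call:
Cdc20, chr4:118437344-118437493, - strand: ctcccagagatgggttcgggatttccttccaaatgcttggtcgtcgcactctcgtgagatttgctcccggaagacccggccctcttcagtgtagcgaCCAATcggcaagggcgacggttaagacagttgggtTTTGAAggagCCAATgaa
Cenpn, chr8:116921590-116921739, + strand: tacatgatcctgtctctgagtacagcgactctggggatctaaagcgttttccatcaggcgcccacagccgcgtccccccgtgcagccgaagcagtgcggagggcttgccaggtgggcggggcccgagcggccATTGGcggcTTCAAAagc
Bub1, chr2:127831860-127832009, - strand: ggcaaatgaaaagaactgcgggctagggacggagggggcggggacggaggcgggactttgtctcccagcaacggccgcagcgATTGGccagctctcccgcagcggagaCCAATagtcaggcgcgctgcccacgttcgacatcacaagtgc
Bub3, chr7:131560220-131560369, + strand: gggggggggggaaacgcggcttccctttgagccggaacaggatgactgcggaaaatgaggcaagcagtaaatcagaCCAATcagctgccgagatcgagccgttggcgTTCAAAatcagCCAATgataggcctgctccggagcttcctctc
Zwint, chr10:72654696-72654845, + strand: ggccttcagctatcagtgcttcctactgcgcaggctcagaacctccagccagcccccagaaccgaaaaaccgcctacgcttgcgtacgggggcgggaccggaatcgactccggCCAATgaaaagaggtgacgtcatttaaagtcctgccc
Dsn1, chr2:157007076-157007225, - strand: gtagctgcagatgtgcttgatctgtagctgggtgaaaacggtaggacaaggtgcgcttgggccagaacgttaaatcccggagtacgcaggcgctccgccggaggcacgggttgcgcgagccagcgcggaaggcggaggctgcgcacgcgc
In these 150 bases Cdc20 holds 2 CCAAT boxes around its TTTGAA, and so does Bub3, whose RNA changed little. Zwint, with no call, carries 1 CCAAT box. Dsn1 has neither motif in the stretch shown.

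The centromere-resident members fell without exception. Of the 12 measured (11 CCAN subunits and Cenpa), 12 fell at 14 days and 12 at 28 days, with medians of -1.35 and -1.87. Cenpa (probe set 17435825) read 1.59, 1.70 and 1.71 in the undifferentiated arrays, 0.0026, -0.17 and 0 at 14 days and -0.74, -0.54 and -0.49 at 28 days. The groups did not overlap, and Cenpa, the centromeric histone itself, fell by 1.72 at 14 days (SE 0.07, limma adjusted p = 2.6e-08) and by 2.26 at 28 days (SE 0.07, limma adjusted p = 2.5e-09).

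Cenpi, a CCAN subunit of the group with Cenph, Cenpk and Cenpm, fell most among the residents. Cenpi (probe set 17537648) read 2.11, 2.06 and 1.88 in the undifferentiated arrays, 0.09, -0.0038 and 0 at 14 days and -0.74, -0.64 and -0.99 at 28 days. Its undifferentiated arrays lay above all induced ones, with a fall of 3.97-fold at 14 days and 7.01-fold at 28 days (log2 -2.81, SE 0.09, limma adjusted p = 1.88e-09). Its partners changed less: at 28 days Cenpk stood at -2.10, Cenpm at -2.03 and Cenph at -1.82. Cenpn and Cenpl encode a pair that binds the CENP-A nucleosome, and they fell unequally, by 2.41 and 1.16.

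The subunits Cenpo, Cenpp and Cenpq belong to a further CCAN group, and Cenpo had the smallest fall of the resident members. Cenpo (probe set 17279789) read 0.57, 0.59 and 0.54 in the undifferentiated arrays, 0, -0.07 and 0.05 at 14 days and -0.09, -0.12 and -0.15 at 28 days. The 3 states did not overlap, though those at 14 and 28 days lay close together, and the fall at 28 days was 1.61-fold (log2 -0.68, SE 0.04, limma adjusted p = 3.77e-07). Cenpp fell by 1.10 and Cenpq by 1.92 at 28 days. Cenpt, which reaches out to the Ndc80 complex, fell by 1.37, and its histone-fold partner Cenpw by 1.41. Cenpw had the widest spread of the residents among undifferentiated arrays, from 1.02 to 1.46.

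The Ndc80 complex is the main microtubule hook of the kinetochore, and all 4 of its genes fell in each of the 3 comparisons. Ndc80 (probe set 17347042) read 1.93, 1.96 and 1.80 in the undifferentiated arrays, 0.30, 0 and -0.03 at 14 days and -1.08, -1.15 and -0.89 at 28 days. The 3 states were separate, with a fall of 3.5-fold at 14 days and 7.65-fold at 28 days (log2 -2.94, SE 0.09, limma adjusted p = 2.4e-09). Nuf2, the coiled-coil partner of Ndc80, fell by nearly the same amount, 1.89 and 2.92. Spc24 and Spc25, which anchor the complex to the inner kinetochore, fell by 1.44 and 2.02 at 28 days.

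Knl1 and Zwint, whose proteins bind each other, went apart. Knl1, the scaffold that Bub1 and BubR1 dock on, fell from 1.95 ± 0.08 to 0.02 ± 0.03 and -0.96 ± 0.07 (SD, n = 3), which is 7.49-fold at 28 days (log2 -2.90, SE 0.05, limma adjusted p = 4.93e-11). Zwint (probe set 17234192) read -0.12, -0.04 and -0.06 in the undifferentiated arrays, 0.15, 0.06 and 0.003 at 14 days and 0, -0.10 and 0.03 at 28 days. The Zwint arrays at 14 days were all above the undifferentiated ones, and those at 28 days overlapped both groups. Its changes of 0.14 at 14 days (SE 0.05, limma adjusted p = 0.0607) and 0.05 at 28 days (SE 0.05, limma adjusted p = 0.5) did not pass the test. Without day-14 replicate 3 the change at 14 days was called as a rise (limma adjusted p = 0.0443, the lowest of the alternatives, which spanned 0.0443 to 0.207). The 95% interval at 28 days ran from -0.07 to 0.17.

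In the Mis12 complex, which links the centromere to Knl1 and Ndc80, Nsl1 and Pmf1 fell early and Dsn1 late. Nsl1 was at -1.59 and -1.98, and Pmf1 at -1.27 and -1.48. Dsn1 (probe set 17393620) read 0.15, 0 and 0.12 in the undifferentiated arrays, 0.02, 0.02 and -0.01 at 14 days and -0.45, -0.25 and -0.40 at 28 days. The first 2 states overlapped for Dsn1 (log2 -0.08, SE 0.06, limma adjusted p = 0.363), and the arrays at 28 days were lower than both (log2 -0.46, SE 0.06, limma adjusted p = 9.9e-05). A table without levels or detection calls cannot show whether a probe set with a small change, such as that of Zwint, Dsn1 or Bub3, measured its transcript well.

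**Figure D2:**
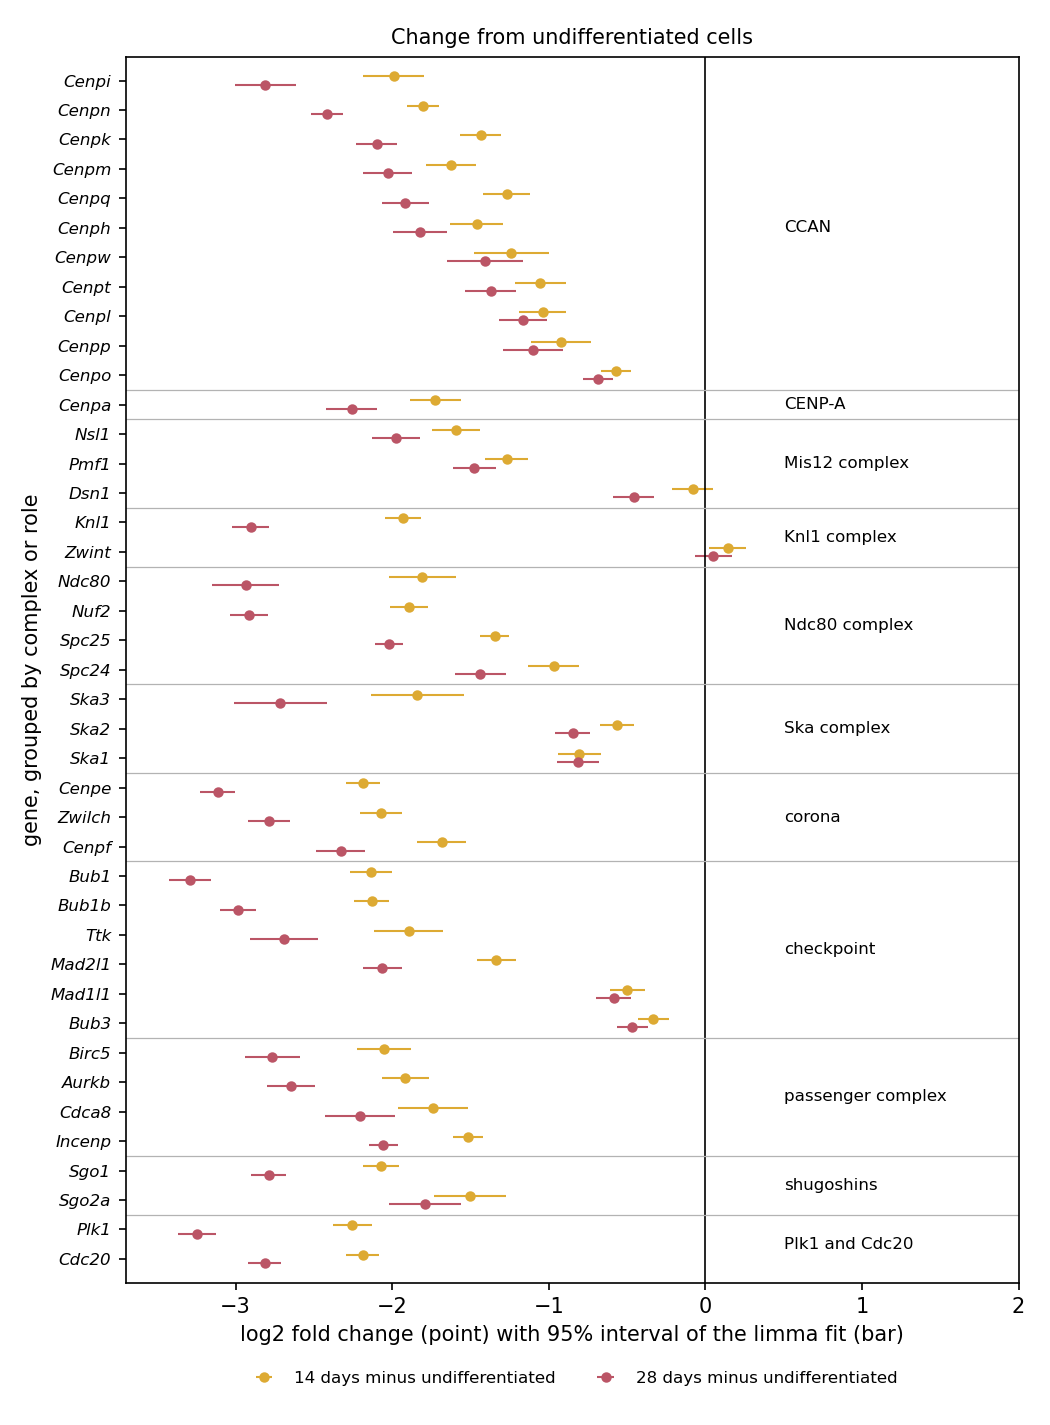
Log2 fold change from undifferentiated cells (x axis) of each of the 41 genes (y axis, grouped by complex or role) at 14 days (yellow) and 28 days (red); points are estimates of the limma fit and bars their 95% intervals, with 3 arrays per group. Falls reach -3.29 for Bub1, and the points of Zwint lie at 0.14 and 0.05.

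The Ska complex helps Ndc80 to hold on to shrinking microtubules, and its 3 genes behaved differently. Ska3 went from 1.82 ± 0.07 to -0.02 ± 0.03 and -0.89 ± 0.34 (SD, n = 3), with arrays at 28 days as far apart as -0.60 and -1.26 and a change of -2.71 (SE 0.13, limma adjusted p = 5.57e-08). Ska1 (probe set 17355420) read 0.73, 0.79 and 0.76 in the undifferentiated arrays, 0.06, 0 and -0.18 at 14 days and -0.0055, -0.08 and -0.06 at 28 days. Ska1 thus fell once, by 0.80 at 14 days (SE 0.06, limma adjusted p = 1.78e-06), and its arrays at 14 and 28 days overlapped (log2 -0.0091, SE 0.06, limma adjusted p = 0.955). Ska2 was averaged over 2 probe sets that disagree: 17254670 was at -1.69 at 28 days (SE 0.04, limma adjusted p = 2.01e-09 over all probe sets) and 17267466 at -0.00045 (SE 0.07, limma adjusted p = 0.998). Its mean change of -0.85 therefore describes neither.

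The genes of the fibrous corona, the outermost layer of an unattached kinetochore, fell strongly. Cenpe (probe set 17402797) read 2.22, 2.22 and 2.12 in the undifferentiated arrays, 0.05, -0.05 and 0 at 14 days and -0.88, -0.91 and -0.995 at 28 days. Cenpe encodes a kinesin that walks chromosomes to the spindle equator, and its states were separate, with 4.55-fold and 8.66-fold falls (log2 -3.11, SE 0.05, limma adjusted p = 3.31e-11). Zwilch, a subunit of the complex that brings dynein to kinetochores, was at -2.07 and -2.79, and Cenpf, a large coiled-coil protein of the corona, at -1.68 and -2.33.

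All 6 checkpoint genes fell at both times, but over a wide range. Bub1 (probe set 17391376) read 2.17, 2.07 and 2.07 in the undifferentiated arrays, 0, -0.10 and 0 at 14 days and -1.28, -1.07 and -1.22 at 28 days. Bub1, the kinase that marks centromeric chromatin for the shugoshins, had the largest fall of all members at 28 days, and its 3 states did not overlap. Bub1b encodes BubR1, part of the inhibitor of the anaphase-promoting complex; it was at -2.13 and -2.99 (SE 0.05, limma adjusted p = 3.73e-11 at 28 days). Ttk, which encodes the Mps1 kinase that starts the signal, was at -1.90 and -2.69.

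Bub3, the shared partner that carries Bub1 and BubR1 to Knl1, fell little. Bub3 (probe set 17484040) read 0.29, 0.36 and 0.37 in the undifferentiated arrays, 0.04, -0.02 and 0 at 14 days and -0.07, -0.18 and -0.12 at 28 days. Its groups were still separate, with a fall of 1.26-fold at 14 days (log2 -0.33, SE 0.04, limma adjusted p = 0.000152) and 1.38-fold at 28 days (log2 -0.47, SE 0.04, limma adjusted p = 1.01e-05). The same contrast appeared between Mad2l1 and Mad1l1, which encode the Mad2 protein and its kinetochore anchor Mad1. Mad2l1 fell from 1.32 ± 0.02 to -0.74 ± 0.12 at 28 days (SD, n = 3), a change of -2.06, and Mad1l1 from 0.53 ± 0.05 to -0.05 ± 0.04, a change of -0.58 (SE 0.05, limma adjusted p = 4.04e-06).

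The chromosomal passenger complex corrects faulty attachments, and its 4 genes all fell, by 2.06 to 2.76 at 28 days. Aurkb (probe set 17251485) read 1.85, 1.88 and 1.91 in the undifferentiated arrays, 0.07, -0.17 and 0 at 14 days and -0.66, -0.80 and -0.84 at 28 days. Aurkb encodes its kinase, and the fall was 6.26-fold at 28 days (log2 -2.65, SE 0.07, limma adjusted p = 4.84e-10). Birc5, which encodes survivin, was at -2.76, Cdca8, which encodes borealin, at -2.20, and the scaffold gene Incenp at -2.06. Of the shugoshins, the protectors of centromeric cohesion, Sgo1 was at -2.79 and Sgo2a at -1.79.

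Plk1 (probe set 17482739) read 2.32, 2.24 and 2.31 in the undifferentiated arrays, 0.11, 0 and 0 at 14 days and -1.02, -0.9998 and -0.85 at 28 days. Plk1 was the member with the largest fall at 14 days, and its states were separate. Cdc20 (probe set 17429177) read 2.14, 2.16 and 2.26 in the undifferentiated arrays, 0, 0 and -0.0028 at 14 days and -0.70, -0.59 and -0.60 at 28 days. Cdc20, the activator of the anaphase-promoting complex that the checkpoint restrains, fell 4.56-fold at 14 days and 7.03-fold at 28 days (log2 -2.81, SE 0.05, limma adjusted p = 3.73e-11). At 14 days its 3 arrays differ by almost nothing, the tightest of the members, and 2 of them are tied.

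The changes of the centromere-resident and mitosis-restricted members overlapped, with the larger median falls in the mitosis-restricted genes. The mitosis-restricted genes, here the 29 members outside the CCAN and Cenpa, had medians of -1.74 at 14 days and -2.33 at 28 days, against -1.35 and -1.87 for the 12 residents. The difference between the medians was -0.39 and -0.46, and was not tested since the genes were chosen by name. At 28 days 17 of the 29 mitosis-restricted genes lay within the range of the residents, 8 fell more than every resident and 4 (Zwint, Bub3, Dsn1 and Mad1l1) changed less. Among the members, the genes with the smallest changes thus belong to the mitosis-restricted class. Of the centromere genes outside the members, Cenps and Cenpx were at -0.38 and -0.25 at 28 days, smaller changes than those of Dsn1, Bub3 and Mad1l1. Cenpc1 was at -1.02 and Itgb3bp at -0.50. These genes were not counted with the residents, and the difference between the medians depends on where the class border is drawn. Medians with them among the residents were not computed. Counted with the residents, the Mis12 complex would move the medians at 28 days to -1.82 and -2.67.

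**Figure D3:**
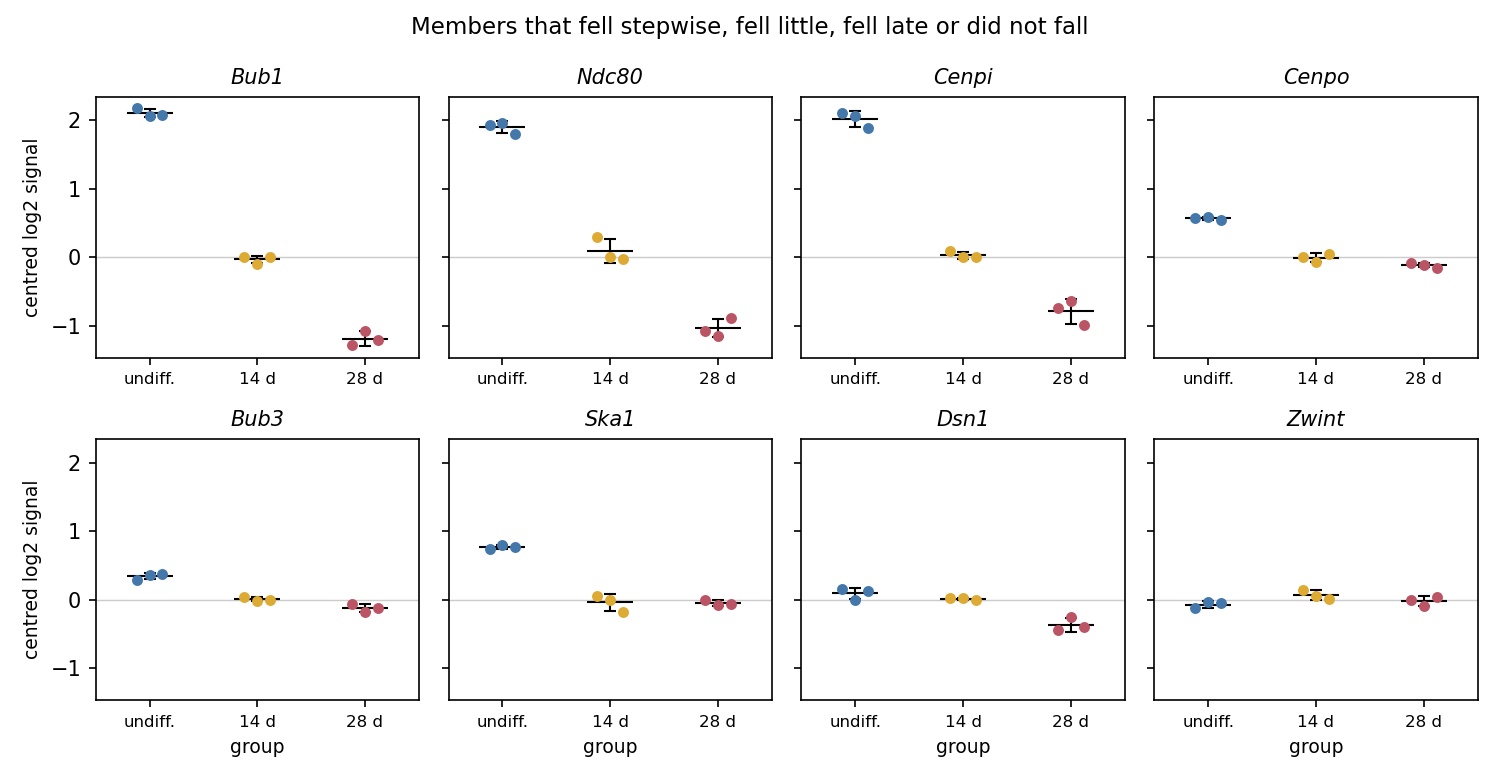
Centred log2 signal (y axis) of 8 members in undifferentiated cells and after 14 and 28 days (x axis); dots are the 3 arrays of a state, the long dash their mean and the bar their SD. Bub1, Ndc80 and Cenpi step down at each time by large amounts. Cenpo and Bub3 do so by small amounts, with no call between 14 and 28 days. Ska1 falls by 14 days alone, Dsn1 is low at 28 days alone, and Zwint stays within -0.12 to 0.15.

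Between 14 and 28 days the members went on falling. Of 41, 31 fell further and none rose, beside 4.67% of all genes that fell and 2.72% that rose, and the median was -0.61, against 0.0018 for all genes. 3 members fell at least 2-fold in this interval, Bub1 by 1.16 (SE 0.06, limma adjusted p = 6.89e-06), Ndc80 by 1.13 and Nuf2 by 1.02, beside 0.0496% of all genes. Tested against a change of 1.5-fold, 5 members had fallen, beside 0.0766% of all genes. In 34 of 41 genes every undifferentiated array lay above every array at 14 days and every one of those above every array at 28 days, an order found in 7.35% of all genes. For the late interval alone 35 members were lower with no overlap, beside 13.8%.

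The late fall came in 8 of 12 residents, with a median of -0.38, and in 23 of 29 mitosis-restricted genes, with a median of -0.68 (-0.55 and -1.08 after quantile normalization again). The residents without a late call were Cenpl, Cenpo, Cenpp and Cenpw, at -0.13, -0.11, -0.18 and -0.17. The others without one were Pmf1, Zwint, Ska1, Bub3, Mad1l1 and Sgo2a, at -0.21, -0.09, -0.0091, -0.13, -0.09 and -0.29. In the 39 genes that had fallen at both times, the change at 14 days made up 61.6% (Ndc80) to 98.9% (Ska1) of that at 28 days. Its median was 78.4% in residents and 71.5% in the others, which is a description, as both changes rest on the same undifferentiated arrays. These shares depend on the scaling, in alternatives chosen after seeing the data. Quantile normalization again lowered the medians to 57.4% and 48.1%, and scaling to the same median absolute deviation to 70.3% and 61.6%. Both were applied to centred values and make arrays of unlike spread alike. They therefore cannot show how another normalization of the signals would move the shares.

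Some late calls near the threshold were lost when an array was left out, which also leaves its group smaller. The estimate of Cenph stayed at -0.31 to -0.36 in the 4 such fits that lost its call. Cenph fell by 0.36 (limma adjusted p = 0.0184), a call lost without day-14 replicate 1 (0.0798), day-14 replicate 2 (0.0745), day-28 replicate 1 (0.0652) or day-28 replicate 2 (0.0593), and the alternatives spanned 0.012 to 0.121. Cenpt, at -0.32 (limma adjusted p = 0.0268), lost its call without any of the same 4 arrays, with 0.106, 0.0966, 0.0877 and 0.0878 and a range of 0.0182 to 0.106. Cdca8, at -0.47 (limma adjusted p = 0.0201), lost its call without day-14 replicate 1 (0.0805) or 2 (0.072) and without day-28 replicate 1 (0.068) or 3 (0.0717), in a range of 0.00629 to 0.0805. Pmf1 was called without day-14 replicate 1 (0.0292, in a range of 0.0292 to 0.246).

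Partners within a complex were then set against each other by the difference of their log2 signals in each array, for 13 pairs and all 3 comparisons. With 3 arrays against 3, an exact two-sided permutation test cannot give a p below 0.1, and the lowest value after Benjamini-Hochberg adjustment over the 39 tests was 0.13, so the gaps are described by their size. The log2 change of the first gene minus that of the second at 28 days was -2.83 (SE 0.11) for Bub1 and Bub3, -2.96 (SE 0.09) for Knl1 and Zwint and -1.48 (SE 0.10) for Mad2l1 and Mad1l1. For Sgo1 and Sgo2a it was -0.998 (SE 0.14). It was 1.52 (SE 0.08) for Dsn1 and Nsl1 and 1.25 (SE 0.10) for Cenpl and Cenpn, pairs in which the gene named last had the lower value. Ndc80 and Nuf2 stayed together, at -0.02 (SE 0.07). For Cenpt and Cenpw it was 0.03, with an SE of 0.21 that is too wide to tell whether they stayed together.

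Other genes of the pathway were taken from lists by role, and the median falls were larger in the list of mitotic entry than in those of the centromere, the anaphase-promoting complex and cohesin. Of 11 measured genes of mitotic entry, 10 fell at 14 days and 11 at 28 days, with medians of -1.49 and -2.20; Aurka, the spindle pole kinase, was at -2.99 and Cdk1 at -1.83. Of 19 further corona, checkpoint and attachment genes 15 fell at 28 days and 1 rose (median -0.75). Kif2c, which removes faulty attachments, was at -2.67, Kntc1, the Rod subunit next to Zwilch, at -2.41, and Zw10, the other subunit of that complex, at -0.46. Of 7 further centromere genes 6 fell and 1 rose (median -0.38), among them Cenpc1, the CCAN's link to Mis12, at -1.02 and Mis18a, needed to load CENP-A, at -1.16. The CENP-T partners Cenps and Cenpx were at -0.38 and -0.25.

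Of 18 genes for subunits and partners of the anaphase-promoting complex, which Cdc20 activates, 8 fell, 3 rose and 7 were not called at 28 days, with a median of -0.08. The number that rose is near the 20.4% of all genes that did. The large falls were those of Ube2c, its ubiquitin-conjugating enzyme, at -2.79 and Fbxo5, its interphase inhibitor, at -2.12, while the subunit genes ran from -0.44 (Cdc23) to 0.41 (Cdc26). In the cohesin and separase list 10 of 13 fell (median -0.33), led by the cohesion factor gene Cdca5 at -2.06 and the separase gene Espl1 at -1.73, with the ring subunits Smc1a at -0.33 and Smc3 at -0.50. S-phase genes fell in 13 of 13 (median -1.27), and Mki67 and Top2a, general marks of cycling cells, were at -2.92 and -2.94. In all, 50 of 68 pathway genes outside the members (S-phase genes and the regulators apart) fell and 6 rose at 28 days, and 48 fell and 7 rose at 14 days, beside the shares of all genes given above (19.5% fell and 20.4% rose at 28 days, 17.5% and 18.2% at 14 days). Tested against a change of 1.5-fold, 26 of the 68 had fallen at 28 days, beside 4.39% of all genes, and 24 at 14 days, beside 3.12%.

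**Figure D4:**
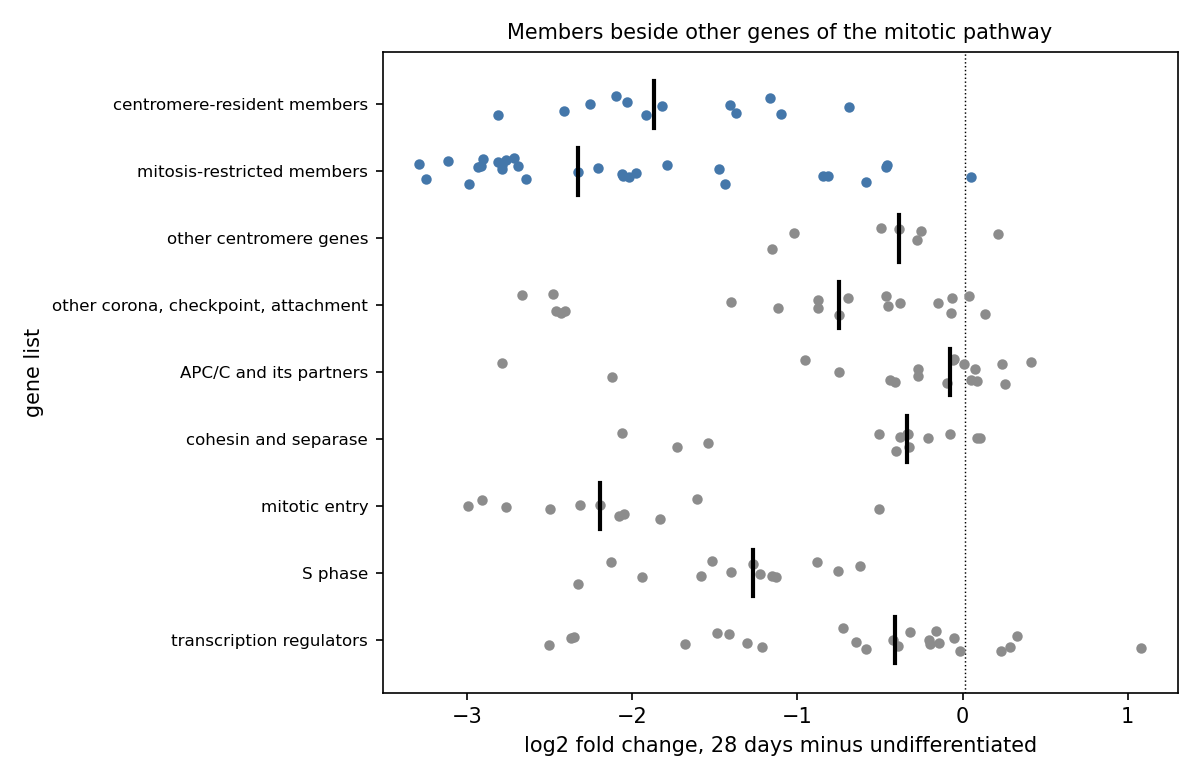
Log2 fold change at 28 days against undifferentiated cells (x axis) for the 2 classes of members (blue) and 7 lists of other cell division genes (grey); each dot is a gene, the black bar the median of its list and the dotted line the median of all genes. The medians of the members, -1.87 and -2.33, lie beside that of mitotic entry at -2.20, and that of the anaphase-promoting complex is -0.08.

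Of 24 measured regulators that act on promoters of mitotic genes, 16 fell and 4 rose at 28 days. The count of rises is near the background, as 20.4% of all genes rose and 19.5% fell. The activators Foxm1 and Mybl2 fell by 2.35 and 1.42, and E2f7 and E2f8, repressors made in S phase, were at -2.37 and -2.50. Rbl2, which encodes the pocket protein p130 of resting cells, rose 2.12-fold (log2 1.08, SE 0.04, limma adjusted p = 7e-09), and its relative Rbl1 fell by 1.68. Cdkn1a, an inhibitor of cyclin-dependent kinases, was at -1.49. Lin54, which contacts the TTTGAA element, was at -0.64, and the NF-Y genes Nfya, Nfyb and Nfyc at 0.23, -0.58 and -0.20.

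Markers of the cell types that the cultures could hold were measured beside these falls. At 28 days 20.4% of all genes rose and 19.5% fell, and the counts of these short lists were not tested against those shares. Averaged per array, the 9 stromal markers lay at -0.46 to -0.37 in undifferentiated, -0.0033 to 0.03 in 14-day and 0.09 to 0.12 in 28-day arrays, and 4 rose and 2 fell at 28 days. Osteoblast markers rose in 3 of 8 at 28 days (-0.34 to -0.28 in undifferentiated, -0.03 to 0.07 in 14-day and 0.02 to 0.11 in 28-day arrays), with Omd at 1.51, Pth1r, the parathyroid hormone receptor gene, at 1.03 and Alpl, the alkaline phosphatase gene, at 0.46. The 5 without a call, Bglap, Dmp1, Sp7, Ibsp and Phex, lay between -0.18 and 0.09. Macrophage markers rose in 3 of 8 (-0.64 to -0.51 in undifferentiated, -0.04 to 0.07 in 14-day and 0.07 to 0.13 in 28-day arrays), with Cd14 at 2.74, Csf1r, the receptor of macrophage colony-stimulating factor, at 2.10 and Cd68 at 0.75. The 5 without a call, Lyz2, Adgre1, the pan-leukocyte gene Ptprc, Itgam and Aif1, lay between -0.16 and 0.07. Endothelial markers rose in 5 of 6 (-0.67 to -0.57 in undifferentiated, 0.04 to 0.12 in 14-day and 0.03 to 0.06 in 28-day arrays), led by Kdr at 1.91 and Erg at 1.33. Adipocyte markers rose in 2 of 6 (-0.67 to -0.59 in undifferentiated, -0.05 to 0.02 in 14-day and 0.0087 to 0.14 in 28-day arrays), Fabp4 at 3.63 and Lpl at 0.71. The 4 without a call were Adipoq, Plin1, Cidec and Pparg, the lowest of them at -0.07. Of the blood markers limma called 0 of 3, and 0 at an unadjusted p under 0.05 (-0.0095 to 0.03 in undifferentiated, -0.05 to 0.0062 in 14-day and 0.0048 to 0.07 in 28-day arrays). Centred values cannot show whether a marker was at 0, and the part of other cells in the fall of the kinetochore genes was not tested.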

How the data were processed

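Biotin-labelled total RNA of 9 MSC2 samples, 3 per state, was hybridised to 1-colour arrays. Per the submitters' processing notes the values were made with RMA; for its version, software and annotation nothing is given in the sources used here. The deposited log2 values have a median of 0 in every one of the 33794 probe sets. No label states the log base; 2 was assumed, the base that RMA uses.

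Probe sets annotated to exactly 1 gene (23521) were averaged per gene, which gave 22180 genes; 1814 probe sets with several genes and 8459 with none were left out. The fit used limma 3.58.1 under R 4.3.3 and 1 mean for each state over all 9 arrays (6 residual and 3.81 prior degrees of freedom) and Benjamini-Hochberg adjustment over all 22180 genes; a call is an adjusted p under 0.05. On simulated data for 14 days minus undifferentiated with 200 of 22180 genes changed, 74% of 1.3-fold, 96% of 1.5-fold and 100% of 2-fold changes were recovered.

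The members and the other gene lists were chosen with earlier results of these data known, so no list was tested as a set. Any member could be named, with up to 4 called genes of largest change per other list and comparison, and always Mki67, Top2a, Cdk1, Foxm1, Mybl2, Rbl2 and Fkbp5. Cenpx, Zw10, Cdc23, Cdc26, Smc1a, Lin54, Nfya, Nfyb, Nfyc, the markers without a call and the shared probe sets were chosen after their values were seen. Ccnb1 is not analysed here. Alternatives were other scalings, other probe set choices, left-out arrays, a replicate block, other variance priors, stricter thresholds and other class borders.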

Additional observations from a re-analysis of the deposited data

How the results depend on the processing

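Of 1965 refitted changes of single members, 1943 kept direction and side of the threshold, 15 lost a call, 2 gained one and 5 changed sign. All 5 are the change of Ska1 between 14 and 28 days, at 0.0349 after quantile normalization again, 0.0408 with arrays scaled to the same median absolute deviation, and 0.04, 0.01 and 0.0072 without day-14 replicate 1, day-14 replicate 2 and day-28 replicate 2; leaving out each array in turn gave -0.0792 to 0.0404. Quantile normalization again gave medians of -0.71 (resident) and -0.93 (mitosis-restricted) at 14 days, -1.36 and -1.95 at 28 days, and -0.55 and -1.08 between them. Scaling to the same median absolute deviation gave -0.88 and -1.14 at 14 days, -1.41 and -1.79 at 28 days, and -0.70 for the mitosis-restricted genes between them. Under that scaling Cenph, Cenpt and Nsl1 lost their call between 14 and 28 days (limma adjusted p = 0.121, 0.0614 and 0.118). Both scalings were applied to the centred values and make the spread of the arrays alike. Before scaling, the SD over all genes was 0.44 to 0.45 in undifferentiated arrays. It was 0.08 to 0.10 at 14 days and 0.15 to 0.16 at 28 days. The part of this unlike spread in the shifts was not tested. Moving the Mis12 complex gave -1.27 and -1.82 at 14 days, and -2.67 and -0.71 for the mitosis-restricted genes at 28 days and between the times; moving Cenpa gave -1.27 for the residents at 14 days. On genes with 1 probe set the mitosis-restricted median at 28 days was -2.49, since Ska2 leaves the class. Against a 1.5-fold change 5 members were called between 14 and 28 days, and 24, 26 and 2 other pathway genes at 14 days, 28 days and between them, beside 3.12%, 4.39% and 0.0766% of all genes. Leaving out each array in turn, members that fell numbered 39 at 14 days and 40 at 28 days each time, and 28 to 31 between them, where the mitosis-restricted median ran from -0.70 to -0.66. Whether the replicate numbers of the titles pair arrays is not stated. Same-numbered deviations from the group means correlated at -0.14 to 0.07. Differently numbered arrays were not set beside them, so these values cannot decide it. With the replicate number as a block, 39, 40 and 31 members fell in the 3 comparisons, and 48, 49 and 25 other pathway genes. Small changes of dim probe sets are limited by signal over background, which centred values do not show.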

Other observations

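Cenpu, the CCAN subunit partnered with Cenpq, is covered by 2 probe sets annotated to Cenpu and its neighbour Primpol, and these went apart in a fit over all 33794 probe sets. Probe set 17501025 read 1.77, 1.60 and 1.47 in undifferentiated arrays, 0, 0 and -0.08 at 14 days and -0.40, -0.33 and -0.50 at 28 days, with changes of -1.64 (SE 0.08, limma adjusted p = 1.69e-07) and -2.02 (SE 0.08, limma adjusted p = 2.93e-08), within the range of the other CCAN genes. Probe set 17509189 read 0.19, 0.04 and -0.0083, then 0, 0.01 and 0.05, then -0.28, -0.28 and -0.27, with -0.05 (SE 0.05, limma adjusted p = 0.566) and -0.35 (SE 0.05, limma adjusted p = 0.000519). Which transcript each of them measures cannot be told from the annotation.

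Genes that load CENP-A or found the outer kinetochore also share probe sets with neighbours. The probe set of Hjurp, the CENP-A chaperone, and of its overlapping transcripts was at -1.92 (SE 0.07, limma adjusted p = 1.56e-08) at 28 days. That of Oip5, a Mis18 subunit, and Nusap1, a spindle protein, was at -1.57 (SE 0.06, limma adjusted p = 4.26e-08). Mis12 shares its probe set with Derl2, at -0.36 (SE 0.06, limma adjusted p = 0.000694), a smaller change than those of its complex partners Nsl1 and Pmf1 and near that of Dsn1 at -0.46. A probe set of Cenpo and the overlapping gene Adcy3 went the other way from Cenpo's own, at 0.43 (SE 0.07, limma adjusted p = 0.000606).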
